A study of Rattus norvegicus with 53 samples.

Results

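Myc, Max and the proteins that compete with Myc for Max were followed at the transcript level in rat L6 myotubes over 8 hours of insulin. The 8 genes were Myc, Max, Mxd1, Mxi1 (also called Mxd2), Mxd3, Mxd4, Mnt and Mlx. They were picked by name, as the genes whose symbol was the only one attached to a probe set, and each was read at the probe set that was brightest on average over all arrays. They made up 8 of the 14218 genes and, with the second probe sets of Max, Mxi1 and Mlx, 11 of the 31099 probe sets on the array. All 11 were bright enough to be tested.

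L6 is a line of rat skeletal muscle myoblasts, fused here into myotubes in low serum and kept without serum for a few hours before the experiment. The insulin culture received 20 nM insulin in serum-free medium and the control culture the same medium without insulin. Each was sampled at time 0 and then as 8 hourly pools, each pool made of 3 samples taken 20 minutes apart. Cells were scraped off at harvest, so each time came from its own plates and no plate was followed over time. The insulin culture's time 0 was taken before insulin was added. The experiment was done 3 times, on different days, and the letters a, b and c of the labels were taken to mark these repeats. This gave 53 arrays in 18 groups of 3, except that the insulin group of hour 3 held repeats b and c only. All cells came from this 1 line, and a single insulin dose was used.

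Array medians lay between 6.3 and 6.37 log2 units. Of a list of 17 myotube genes, 16 were tested and none was called between the insulin and control cultures over hours 1 to 8. Of 12 genes of proliferating cells, 11 were tested and none was called, while their levels at time 0 were higher in the insulin plates for 11 of 11 (median difference 0.22, no gene called). The endothelial and adipocyte genes with a probe set (4 and 5) all lay below the tested levels. Of 4 tested macrophage genes Cd68 was called higher (0.14, adjusted p = 0.0376), and of 6 fibroblast genes Pdgfra was called lower over hours 5 to 8 (-0.32, adjusted p = 0.0158). Array means of the fibroblast list ran from 9.88 to 10.47 with insulin and from 10.00 to 10.59 in control, and those of the macrophage list from 4.98 to 5.26 with insulin and from 4.87 to 5.22 in control. With the repeat as a block, 5 of 16 myotube and 4 of 6 fibroblast genes were called lower and 1 of 11 proliferation and 1 of 4 tested myoblast genes higher over hours 1 to 8, where that fit called 30.5% of all genes. The part of these genes in the results was not tested. In repeat b, the insulin minus control difference at time 0 correlated across probe sets with that of hours 1 to 5 (r = 0.774). In repeat a this r was 0.0254 and in repeat c 0.15. The plates of time 0 and of later hours were not the same, and the cause of this likeness was not tested. Calls that change without the arrays of repeat b at hours 0 to 5 are named where they occur.

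Myc is a transcription factor that binds DNA only as a pair with Max, and the Myc-Max pair raises transcription from the E-box, written CACGTG. Max also pairs with Mxd1, Mxi1, Mxd3, Mxd4 and Mnt. These pairs bind the same E-box, bring in Sin3 and histone deacetylases, and lower transcription, so the balance between Myc and its antagonists sets the output of genes for ribosomes, nucleotides and growth. Mlx is a Max-like protein. It pairs with Mnt, with Mxd1 and Mxd4, and with the glucose-sensing Mondo proteins. In muscle, insulin is known for raising protein synthesis and ribosome production and for holding forkhead box O factors out of the nucleus.

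The promoters of the 4 members called lower and of Mlx are shown because the network's own binding site can be looked for in them. Among the members, the time course of Mlx ran closest to that of Myc. A forkhead sequence was searched for as well, and binding to either sequence was not tested. RefSeq's table for rat build GRCr8 held the promoters of 7 of the 8 members and not that of Myc. Each line below gives the 250 bases before the annotated start, read 5′ to 3′ on the gene's strand. Mxi1 lies on the plus strand (chr1:262348392-262348641), as do Mxd4 (chr14:80786531-80786780), Mnt (chr10:60197709-60197958) and Mlx (chr10:86519636-86519885), and Mxd1 on the minus strand (chr4:120675130-120675379). Capitals mark GTAAACA, a forkhead sequence, in Mxi1 and the E-box CACGTG in Mxd4, Mnt and Mlx, and the stretch of Mxd1 holds neither.
Mxi1 promoter: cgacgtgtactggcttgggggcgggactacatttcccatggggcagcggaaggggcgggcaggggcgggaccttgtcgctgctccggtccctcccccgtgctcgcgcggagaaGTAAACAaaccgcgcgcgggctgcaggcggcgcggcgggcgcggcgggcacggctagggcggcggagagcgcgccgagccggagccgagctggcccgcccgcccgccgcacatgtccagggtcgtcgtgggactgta
Mxd4 promoter: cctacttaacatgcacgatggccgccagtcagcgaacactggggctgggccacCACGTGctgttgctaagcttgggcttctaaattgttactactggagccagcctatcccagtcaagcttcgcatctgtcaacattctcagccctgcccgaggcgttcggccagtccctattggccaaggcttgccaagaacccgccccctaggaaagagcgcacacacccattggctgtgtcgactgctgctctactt
Mnt promoter: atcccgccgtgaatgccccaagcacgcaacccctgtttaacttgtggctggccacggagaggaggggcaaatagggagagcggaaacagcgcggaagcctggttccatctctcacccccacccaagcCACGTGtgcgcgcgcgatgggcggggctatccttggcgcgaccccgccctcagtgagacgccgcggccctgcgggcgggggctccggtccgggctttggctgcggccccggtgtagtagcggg
Mxd1 promoter: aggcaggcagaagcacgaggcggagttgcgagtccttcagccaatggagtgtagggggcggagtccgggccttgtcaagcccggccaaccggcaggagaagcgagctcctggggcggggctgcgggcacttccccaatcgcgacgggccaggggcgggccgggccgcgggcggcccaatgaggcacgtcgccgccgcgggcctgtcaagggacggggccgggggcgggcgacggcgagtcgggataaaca
Mlx promoter: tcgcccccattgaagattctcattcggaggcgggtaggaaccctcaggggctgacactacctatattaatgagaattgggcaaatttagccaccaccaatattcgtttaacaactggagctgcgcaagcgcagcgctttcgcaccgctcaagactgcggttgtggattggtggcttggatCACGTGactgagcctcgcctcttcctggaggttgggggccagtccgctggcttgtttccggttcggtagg

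The E-box CACGTG, which reads the same on both strands, was present once in the promoters of Max, Mxd4, Mnt and Mlx, starting 33, 197, 123 and 70 bases before the start. It was absent from those of Mxi1, Mxd1 and Mxd3. Of the 10803 promoters of tested genes in the table, 860 (7.96%) held it, as did 5.59% of all 33469. GTAAACA, searched on both strands, was present once among the 7, in Mxi1, 137 bases before the start on the plus strand. It was held by 224 (2.07%) of the promoters of tested genes and by 3.21% of all. None of the 7 held both motifs, and a match describes these letters only.

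Myc, the activator, stood higher in the insulin culture than in the control culture once the first hour had passed. Over hours 1 to 8 its level ran from 7.34 through a median of 8.12 to 8.90 log2 units on the 23 insulin arrays, against 6.66, 7.45 and 9.00 on the 24 control arrays. In repeat a of the insulin culture, Myc was at 8.46 at time 0 and at 8.01, 8.35, 8.31, 8.67, 8.70, 8.60 and 8.77 at hours 1, 2 and 4 to 8. Repeat a of the control culture was at 7.89, then 7.97, 7.68, 7.24, 7.68, 7.49, 7.56, 7.98 and 7.80 at hours 1 to 8. Repeat a thus began with less Myc in control than in insulin plates and never showed the high starting level of the other repeats in either culture. In repeat b, the insulin culture gave 8.81 at time 0 and then 8.55, 8.25, 8.19, 8.12, 8.12, 8.12, 8.14 and 8.07, against 9.06 and then 8.87, 7.87, 7.61, 7.41, 7.36, 7.39, 7.33 and 7.37 in the control culture. In repeat c, the insulin culture gave 8.97 and then 8.90, 8.01, 7.34, 7.60, 7.87, 7.97, 7.77 and 7.84, against 9.06 and then 9.00, 7.80, 6.89, 6.72, 6.66, 7.05, 7.32 and 7.31 in the control culture. Both cultures of repeats b and c lost Myc over the first 3 hours, and the control culture ended lower.

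The insulin minus control difference of Myc averaged 0.61 over hours 1 to 8 (SE 0.12, limma adjusted p = 2.87e-04, a 1.53-fold higher level), with 0.75, 0.54 and 0.57 in repeats a, b and c. Myc was higher under insulin in 21 of 23 pairs of arrays of the same repeat and hour, and in 12 of 12 pairs of hours 5 to 8. The insulin and control arrays did not overlap at hours 2, 5, 6 and 8. How many of all genes were apart in this way was not counted, so this describes the arrays only. By hour the difference was -0.12, 0.42, 0.52, 0.74, 1.05, 0.93, 0.63 and 0.73 at hours 1 to 8, so it was widest at hour 5 among the hourly means, although no single hour passed the test over all probe sets for Myc (smallest adjusted p = 0.236). Without repeat b, the adjusted p over hours 1 to 8 was 0.0661 at an unchanged size (0.62). Without only the arrays of repeat b at hours 0 to 5 the call was kept. As these are bulk arrays, more cells with Myc transcript and more transcript per cell under insulin cannot be told apart.

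**Figure D1:**
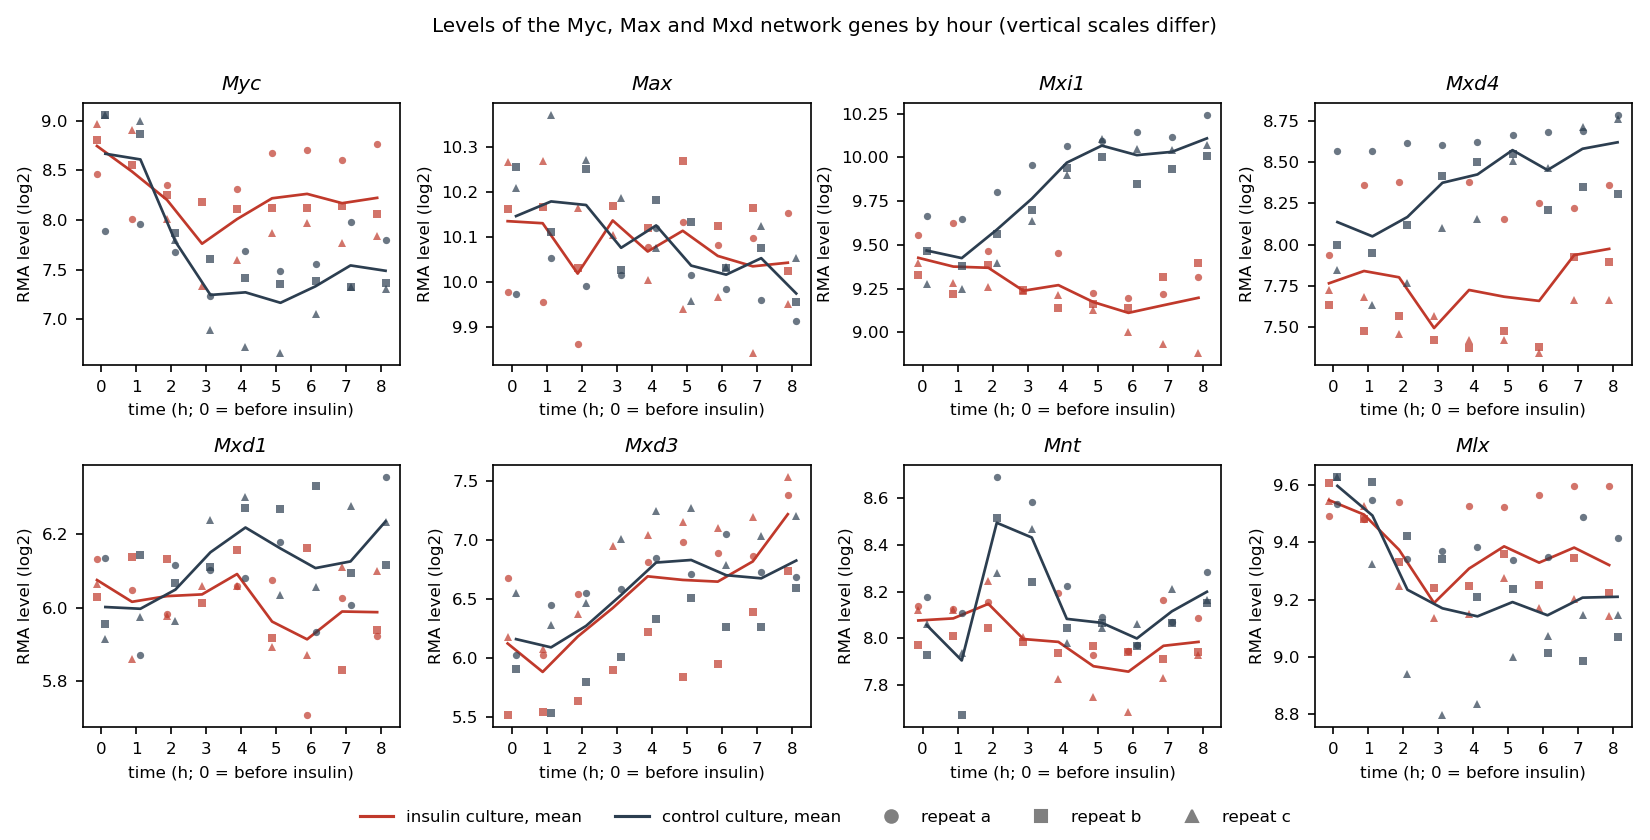
RMA level (log2) of each member against time in hours, 1 panel a gene with its own vertical scale. Red is the insulin culture, dark blue the control culture and points are single arrays (circles, squares and triangles for repeats a, b and c), with lines for group means. Myc falls less and Mxi1 and Mxd4 stay lower in the insulin culture, Mnt peaks at hours 2 and 3 in the control culture, and the insulin mean at hour 3 lacks repeat a, in which Myc and Mxd4 run high at the hours around it.

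Max, the partner that Myc needs to bind DNA, ranged from 9.84 through 10.10 to 10.27 on the insulin arrays of hours 1 to 8 and from 9.91 through 10.05 to 10.37 on the control arrays. The insulin minus control difference was -0.0036 (SE 0.037, adjusted p = 0.965), with a 95% interval from -0.079 to 0.072. Max was higher under insulin in 10 of 23 same-repeat pairs and lower in 13. The second Max probe set gave 0.017 (SE 0.093). The interval at the brighter probe set leaves out changes of the size seen for Myc.

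Of the 5 antagonists, Mxi1 moved most clearly. Mxi1 is a Max partner known as a brake on Myc. Over hours 1 to 8 its level was 8.88, 9.23 and 9.63 (lowest, median and highest) on the insulin arrays, against 9.25, 9.95 and 10.24 on the control arrays. At time 0 the insulin plates held 9.55, 9.33 and 9.39 in repeats a, b and c, against 9.67, 9.46 and 9.27 in control plates, and the groups overlapped. At hour 4 the insulin arrays held 9.46, 9.14 and 9.21, against 10.07, 9.94 and 9.90 on the control arrays. At hour 8 they held 9.32, 9.40 and 8.88, against 10.24, 10.01 and 10.07. Every insulin array was below every control array at each of hours 3 to 8, at both probe sets of the gene. The share of all genes without overlap at these hours was not counted.

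Mxi1 differed by -0.63 over hours 1 to 8 (SE 0.047, adjusted p = 2.94e-12, 1.55-fold lower under insulin) and by -0.90 over hours 5 to 8 (SE 0.065, adjusted p = 1.51e-12), with -0.91, -0.70 and -1.08 in repeats a, b and c in that later period. The second Mxi1 probe set gave smaller differences of -0.40 (SE 0.050, adjusted p = 3.65e-07) and -0.55 (SE 0.069, adjusted p = 2.77e-07). Mxi1 was the only member called at a single hour. Its differences were -0.70, -0.89, -0.90, -0.88 and -0.91 at hours 4 to 8 (adjusted p = 0.0143, 3.76e-04, 2.08e-04, 3.86e-04 and 9.79e-05), at hours when 0.0691%, 0.371%, 0.406%, 0.32% and 0.959% of all genes were called in either direction. At the second probe set only hour 8 passed (-0.63, adjusted p = 0.0162), and hours 4 to 7 gave -0.50, -0.48, -0.56 and -0.55 (adjusted p = 0.315, 0.174, 0.0623 and 0.0879), so the calls at hours 4 to 7 rest on 1 probe set. At hours 1, 2 and 3, 0% of genes were called by limma, although 281, 573 and 518 had an unadjusted p under 0.05.

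Mxd4, the antagonist best known from differentiating and resting cells, was also lower. Its level over hours 1 to 8 was 7.34, 7.66 and 8.38 (lowest, median and highest) on the insulin arrays, against 7.63, 8.50 and 8.79 on the control arrays. It differed by -0.64 over hours 1 to 8 (SE 0.10, adjusted p = 2.46e-05) and by -0.74 over hours 5 to 8 (SE 0.14, adjusted p = 3.55e-04), and it was lower under insulin in 22 of 23 same-repeat pairs. With 1 mean per repeat in place of separate arrays, the call over hours 1 to 8 was lost (-0.61, adjusted p = 0.0538) and that over hours 5 to 8 was kept (adjusted p = 0.0164). The repeats were less alike than for Mxi1, with -0.46, -0.68 and -1.09 in repeats a, b and c over hours 5 to 8. Mxd4 was already lower in the insulin plates at time 0, before insulin, in each repeat. The values there were 7.94, 7.63 and 7.72, against 8.57, 8.00 and 7.85 in the control plates (difference -0.37, SE 0.29, adjusted p = 1). With the time 0 difference subtracted, Mxd4 differed by -0.37 over hours 5 to 8 (SE 0.32, adjusted p = 0.998), so the part of its difference that arose after time 0 was not resolved. Without repeat c the adjusted p over hours 5 to 8 was 0.078, at -0.57.

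Mnt, the broadly expressed antagonist that is itself a partner of Mlx, differed at a smaller size and with another time course. Over hours 1 to 8 it was 7.69, 7.97 and 8.24 on the insulin arrays, against 7.67, 8.10 and 8.69 on the control arrays, and it differed by -0.17 (SE 0.040, adjusted p = 0.00295). At hour 2 the insulin arrays held 8.15, 8.05 and 8.24 in repeats a, b and c, against 8.69, 8.51 and 8.28 on the control arrays. At hour 3 they held 7.99 and 8.01 in repeats b and c, against 8.58, 8.24 and 8.47 in repeats a, b and c of the control culture. The control culture rose to this peak from 8.11, 7.67 and 7.94 at hour 1 and held 8.22, 8.05 and 7.98 at hour 4. The insulin means at hours 1 to 4 were 8.09, 8.15, 8.00 and 7.99. In repeat c the cultures were close at hour 2 (8.24 and 8.28). The differences at hours 2 and 3 were -0.35 (SE 0.11) and -0.43 (SE 0.12), and neither passed the test at its hour (adjusted p = 1 and 0.81). Across hours 1 to 8 jointly Mnt did pass (F test adjusted p = 0.0382), though not without repeat a (0.0896), b (1) or c (0.631), without repeat b at hours 0 to 5 (0.44) or with all probe sets tested (0.0596). Its call over hours 1 to 8 was lost without repeat b (adjusted p = 0.0562) or repeat c (0.102) and with 1 mean per repeat (0.292), and its call over hours 5 to 8 (-0.17, adjusted p = 0.0429) without repeat b (0.159), without repeat c (0.578, at -0.097), without repeat b at hours 0 to 5 (0.0593), with all probe sets tested (0.0633) or with 1 mean per repeat (0.383).

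Mxd1, an antagonist known for rising as cells leave the cycle, was lower by a small amount. Its level over hours 1 to 8 was 5.71, 6.03 and 6.16 on the insulin arrays, against 5.87, 6.11 and 6.36 on the control arrays. The difference was -0.13 (SE 0.038, adjusted p = 0.022), and -0.19 over hours 5 to 8 (SE 0.053, adjusted p = 0.0127). It was lower under insulin in 19 of 23 same-repeat pairs. The call over hours 1 to 8 was lost when repeat b (adjusted p = 0.164), repeat c (0.222) or repeat b at hours 0 to 5 (0.177) was left out, with arrays centred on their medians (0.0963, at -0.11) and with 1 mean per repeat (0.235), and the call over hours 5 to 8 when repeat a (0.0622), b (0.119) or c (0.0912) was left out, or repeat b at hours 0 to 5 (0.0828), with arrays centred (0.0553) and with 1 mean per repeat (0.184). Mxd3, an antagonist found mainly in cycling cells, ranged from 5.54 through 6.74 to 7.54 on the insulin arrays and from 5.53 through 6.59 to 7.27 on the control arrays. Its difference was -0.027 (SE 0.13, adjusted p = 0.924), with a 95% interval from -0.30 to 0.24 that is wide because the repeats lay apart, repeat b below the others in both cultures at every hour.

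Mlx, the Max-like partner, differed little. Its level over hours 1 to 8 was 9.14, 9.33 and 9.60 on the insulin arrays, against 8.80, 9.28 and 9.61 on the control arrays. It was higher under insulin in 18 of 23 same-repeat pairs, with a difference of 0.12 (SE 0.057, adjusted p = 0.157). With the repeat as a block the same gene was called (0.13, adjusted p = 0.00937), and so was its second probe set without the block (0.14, SE 0.039, adjusted p = 0.0104). With 1 mean per repeat the brighter probe set was not called (0.14, adjusted p = 0.352).

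Counted together over hours 1 to 8, 1 of the 8 members (Myc) was called higher, where 5.75% of all tested genes were, and 4 of 8 (Mxi1, Mxd4, Mnt and Mxd1) were called lower, where 8.34% were. Over hours 5 to 8 the same genes were called, 1 of 8 higher against a background of 4.69% and 4 of 8 lower against 6.5%. As the members were chosen with earlier results of these data known, these shares are a description and no independent test. At time 0 and over hours 1 and 2 no member was called, nor was any gene (0%). At those times limma gave no member an unadjusted p under 0.05 at its brightest probe set, against 78 and 1225 of all genes. The second Mlx probe set had 0.18 over hours 1 and 2 (SE 0.076, limma unadjusted p = 0.0244, adjusted p = 0.452). Across hours 1 to 8 without regard to direction, the F test called 4 members, where 3.07% of genes were called. They were Mxi1 (adjusted p = 2.9e-10), Mxd4 (0.00914), Myc (0.0262) and Mnt. Without repeat b, without repeat c, or without repeat b at hours 0 to 5, 1 of these calls, that of Mxi1, was left. The share of all genes that the F test called in those fits is not given.

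**Figure D2:**
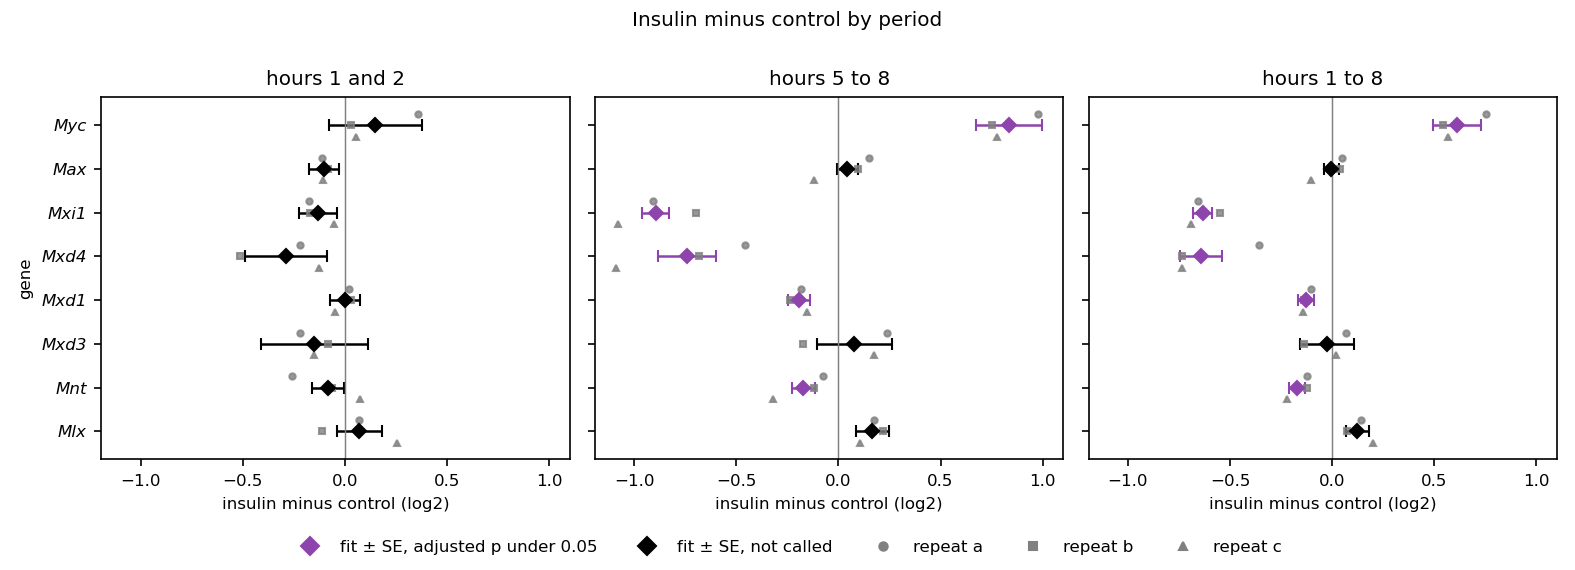
Insulin minus control difference (log2) of each member over hours 1 and 2, hours 5 to 8 and hours 1 to 8. Diamonds with bars are the limma estimate ± SE, purple where the adjusted p was under 0.05 and black where not, with small grey symbols for repeats a, b and c. No member is called over hours 1 and 2, and over hours 5 to 8 Myc lies at 0.84 and Mxi1, Mxd4, Mxd1 and Mnt at -0.90, -0.74, -0.19 and -0.17.

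For Mxi1 the cultures differed more in the late hours than in the early ones. Its difference of hours 5 to 8 less that of hours 1 and 2 was -0.76 (SE 0.11, adjusted p = 1.16e-04), with -0.73, -0.53 and -1.03 in repeats a, b and c. It was the only member called in this comparison, in which 1.17% of genes moved higher and 1.11% lower. Leaving out repeat b took its adjusted p to 0.0583 at a larger size (-0.88), and 1 mean per repeat to 0.072. The corresponding shift of Myc was 0.69 (SE 0.28, adjusted p = 0.222), with 0.62, 0.72 and 0.72 in the repeats. That of Mxd4 was -0.46 (SE 0.25, adjusted p = 0.406), which the fit with the repeat as a block called (adjusted p = 0.0243), as did the fit without repeat a (0.0477).

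The difference between the cultures had opposite signs for the activator and for the mean of the antagonists. Within each repeat, the insulin minus control difference of Myc was compared with the mean difference of Mxi1, Mxd4, Mxd1, Mxd3 and Mnt, as a description with no test. Over hours 5 to 8, Myc differed between insulin and control by 0.84 ± 0.12 and the antagonists by -0.39 ± 0.11 (SD, n = 3 repeats), a gap of 1.22 ± 0.074. The gap was 0.93 ± 0.053 over hours 1 to 8 and 0.28 ± 0.22 over hours 1 and 2. At time 0 it was 0.15 ± 0.39, a spread larger than its mean because Myc of repeat a was 0.58 higher in the insulin plates and differed by -0.25 and -0.096 in repeats b and c. By hour the gap was -0.068 at hour 1, 0.63 at hour 2, 0.87 at hour 3 (n = 2), 1.09 at hour 4, 1.52 at hour 5, 1.35 at hour 6, 0.96 at hour 7 and 1.06 at hour 8. These gaps do not have the gap of time 0 subtracted, which was 0.60 in repeat a and -0.091 and -0.063 in repeats b and c. The mean of the antagonists rested on Mxi1 and Mxd4, since Mxd1 and Mnt differed by -0.19 and -0.17 and Mxd3 was not called. Of these, Mxd4 already differed by -0.37 (SE 0.29) at time 0, before insulin.

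**Figure D3:**
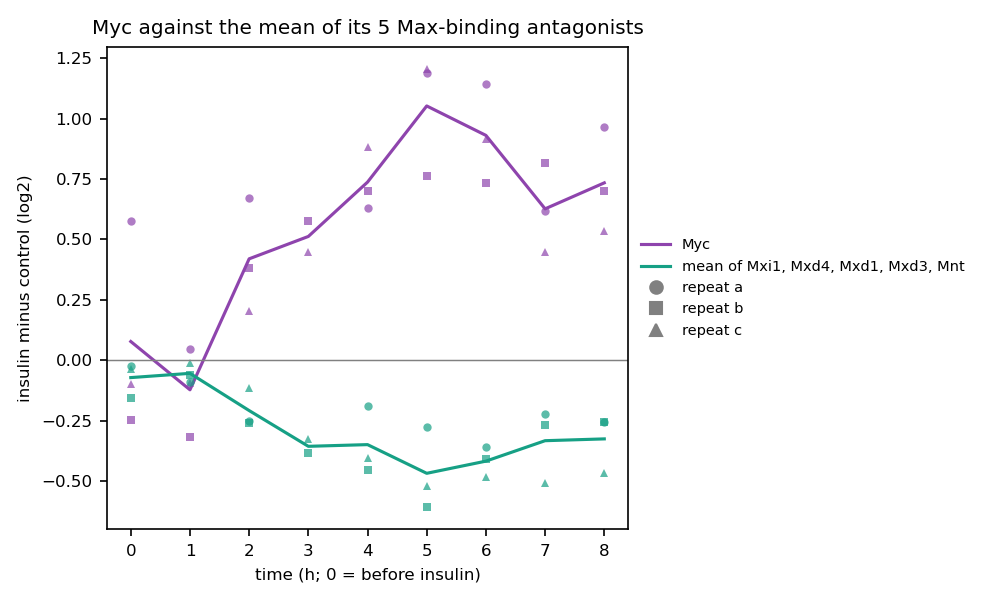
Insulin minus control difference (log2) against time in hours for Myc (purple) and for the mean of its 5 antagonists (green). Symbols are repeats a, b and c and lines are means over repeats, with repeats b and c only at hour 3. The lines lie together at time 0 and hour 1 and stand 1.52 apart at hour 5.

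The late hours of each culture were also compared with the time 0 of that culture, which came from other plates. In the control culture, Myc of hours 5 to 8 differed from time 0 by -1.28 log2 units (SE 0.26, adjusted p = 9.92e-04), with -0.18, -1.70 and -1.98 in repeats a, b and c. Mxi1 was higher than at time 0 by 0.59 (SE 0.10, adjusted p = 2.27e-04), with 0.48, 0.49 and 0.79. Mlx was lower, at -0.41 (SE 0.12, adjusted p = 0.0391). So 1 of 8 members was higher, where 4.5% of genes were, and 2 of 8 were lower, where 3.05% were. The fall of Myc rested on repeats b and c, and its adjusted p was 0.22 without repeat b and 0.0835 without repeat c. The fall of Mlx was not called without repeat b (0.521) or c (0.215), or at its second probe set (0.107). With the repeat as a block, Mxd3 (0.60, adjusted p = 4.75e-04) and Mxd4 (0.42, adjusted p = 0.0134) of the control culture were called higher as well.

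In the insulin culture no member was called between hours 5 to 8 and time 0, while 0.605% of genes were higher and 1% lower. Limma gave 3 members an unadjusted p under 0.05. Myc differed by -0.53 (SE 0.26, adjusted p = 0.463), with 0.22, -0.70 and -1.10 in repeats a, b and c, and without repeat a it was called lower (-0.90, adjusted p = 0.0363). Mxi1 differed by -0.27 (SE 0.10, adjusted p = 0.265) and Mxd3 by 0.71 (SE 0.29, adjusted p = 0.311). With the repeat as a block, both were called (Mxi1 adjusted p = 0.0111, Mxd3 adjusted p = 9.33e-05). Mxd3 thus differed from time 0 by a like amount in each culture (0.71 with insulin and 0.60 in control), with every repeat above 0 in each. The difference between the cultures of hours 5 to 8 with that of time 0 subtracted was called for Mxi1 at its brighter probe set (-0.85, SE 0.15, adjusted p = 0.00275) and not at its second (-0.50, SE 0.16, adjusted p = 0.274). It was not called for Myc (0.76, SE 0.36, adjusted p = 0.825), whose 95% interval ran from 0.027 to 1.49. In that comparison 4 of all tested genes were called higher and 21 lower.

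**Figure D4:**
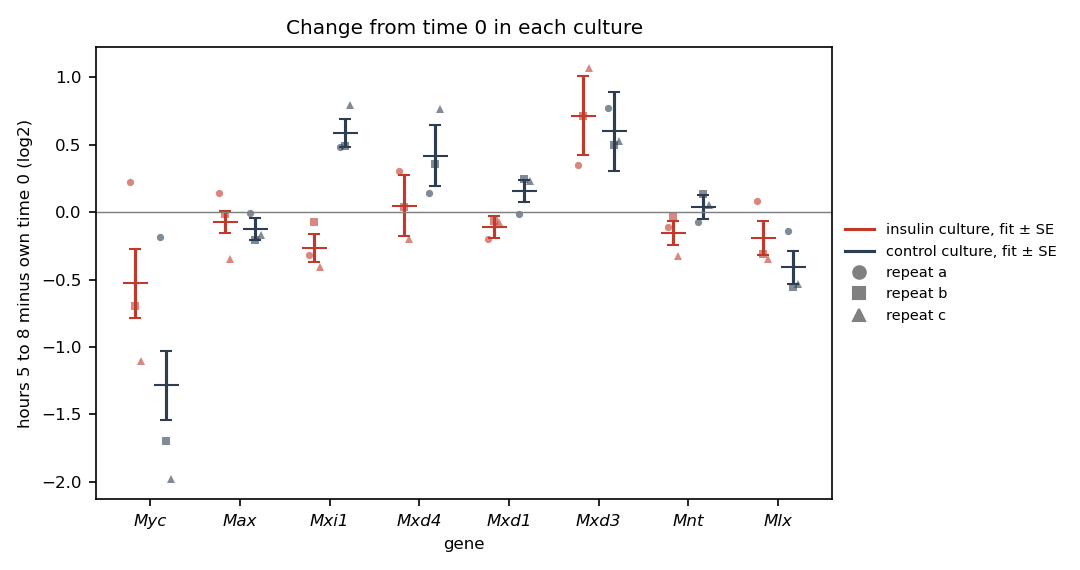
Level of hours 5 to 8 minus the culture's own time 0 (log2) for each member, insulin culture in red on the left and control culture in dark blue on the right of each pair. Crosses with bars are the limma estimate ± SE and symbols are repeats a, b and c. Control Myc lies at -1.28 and control Mxi1 at 0.59, and repeat a of Myc stands apart from repeats b and c in both cultures.

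The members' time courses resembled one another in part. Over the 18 group means, the level of Mxi1 correlated with those of Mxd4 (r = 0.93) and Mxd1 (r = 0.87). That of Myc correlated with Mlx (r = 0.95), Mxi1 (r = -0.75) and Mxd1 (r = -0.75). These means come from successive hours of the same experiments, each hour from its own plates. Max correlated with Mxd4 at -0.35 and with Mnt at 0.056. Among all tested genes, the course most like that of Myc was that of Eaf1 (r = 0.985), whose product works with an elongation factor of RNA polymerase II, followed by the chromatin remodeller Chd1 (0.966), the RNA-binding protein gene Zfp36l2 (0.954), the chromatin gene Baz1a (0.952) and Inhba (0.947), which encodes an activin subunit. Their differences over hours 1 to 8, whose direction the choice by likeness partly fixes, were 0.21 (Eaf1), 0.24 (Chd1), 0.42 (Zfp36l2), 0.24 (Baz1a) and 0.59 (Inhba). For Mxi1 they were Cnppd1 (0.989), the syntaxin gene Stx5 (0.988) and Tbc1d17 (0.985), at differences of -0.49, -0.28 and -0.51. For Mxd4 they were Yipf3 (0.979), Ypel3 (0.975) and the autophagy gene Calcoco1 (0.972). For Mnt they were the circadian repressor gene Nr1d1 (0.871), Hoxa9 (0.852) and Cdkal1 (0.832), and for Mxd1 they were Reep3 (0.886), Mxi1 and Xpc (0.868). For Mlx they were Phlda1 (0.953), Myc and Zfp281 (0.942), for Mxd3 Sapcd1 (0.948), Psmb9 (0.945) and Tpgs2 (0.942), and for Max Polr1h (0.864), Chst2 (0.857) and Niban2 (0.839).

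Genes of the wider network and the cofactors are given list by list, where 14.1% of all genes were called in either direction over hours 1 to 8. Whether these short lists differ from that share was not tested. Of 8 further E-box factors and partners, 1 was called over hours 1 to 8, Usf1, an E-box factor outside the Max network, which was lower (-0.22, SE 0.037, adjusted p = 5.66e-05). The Myc relatives Mycn (0.068, adjusted p = 0.831) and Mycl (-0.099, adjusted p = 0.0977), the Max partner Mga (0.26, adjusted p = 0.191) and the Mondo genes Mlxip (-7.09e-04) and Mlxipl (0.078) were not called. Of 6 tested corepressor genes, the scaffold Sin3a was lower (-0.19, SE 0.055, adjusted p = 0.0192) and the other 5 were not called. Of 9 coactivator genes, 2 were higher, the helicase gene Ruvbl2 (0.22, adjusted p = 0.0237) and Wdr5 (0.18, adjusted p = 0.00108), whose product binds Myc and histone H3. Of 7 tested genes for turnover of the Myc protein, none was called. Without repeat b, without repeat c, or without repeat b at hours 0 to 5, no corepressor was called lower, and without repeat b no coactivator was called higher, while the call of 1 E-box factor lower was there in each of these. Those fits also called a smaller share of all genes than the main fit. With the repeat as a block, the E-box factors had 0 higher and 2 lower, the corepressors 1 and 2, the coactivators 3 and 1 and the turnover genes 0 and 1, in a fit that called 30.5% of all genes. The median differences of the 4 lists lay between -0.012 and 0.046, beside -0.0038 over all genes.

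Genes known from other systems to be raised by Myc were higher under insulin in a large share. The list held 44 genes of ribosome assembly, nucleotide, polyamine and 1-carbon synthesis, amino acid uptake and translation, of which 39 were tested. It was chosen with earlier results of these data known, so its shares are a description and no independent test. Its genes were also bright, at a median percentile of level of 91.1, unlike the background of all genes. Over hours 1 to 8, 17 of 39 (43.6%) were higher and none was lower, where 5.75% of all genes were higher, and over hours 5 to 8, 23 of 39 (59%) were higher and none lower, where 4.69% of all genes were higher. The median difference was 0.14 over hours 1 to 8 and 0.27 over hours 5 to 8, beside -0.0038 and -0.0013 over all genes, and 39 of 39 differences of hours 5 to 8 were above 0. Mthfd2, a mitochondrial enzyme of 1-carbon metabolism, showed the largest difference of the list (1.06 over hours 5 to 8, SE 0.084, adjusted p = 1.07e-11), followed by the arginine and lysine transporter Slc7a1 (0.89, SE 0.097, adjusted p = 1.75e-08) and spermidine synthase Srm (0.71, SE 0.12, adjusted p = 5.03e-05). Of the ribosome assembly genes, Nop56 (0.60), Nop58 (0.58), Gnl3 (0.61) and Rrs1 (0.58) were called, and Fbl (0.31, adjusted p = 0.166) and Ncl (0.19, adjusted p = 0.0519) were not. Lactate dehydrogenase Ldha (0.049, adjusted p = 0.784) and the mitochondrial factor Tfam (0.023, adjusted p = 0.877) were not called either.

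These counts moved with the arrays used, as did the background. Without repeat b the list had 9 of 39 genes higher over hours 1 to 8, with 3.71% of all genes called in either direction, and 13 of 39 over hours 5 to 8, with 5.34%. Without repeat b at hours 0 to 5 it had 18 of 39, with 9.21% of all genes called. With the time 0 difference subtracted, 2 of the 39 were called higher over hours 5 to 8, and the median was 0.27. At time 0 itself the list's median difference was 0.017, with 24 of 39 above 0 and none called. Many of these genes are also raised by other growth signals, and their dependence on Myc was not tested.

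**Figure D5:**
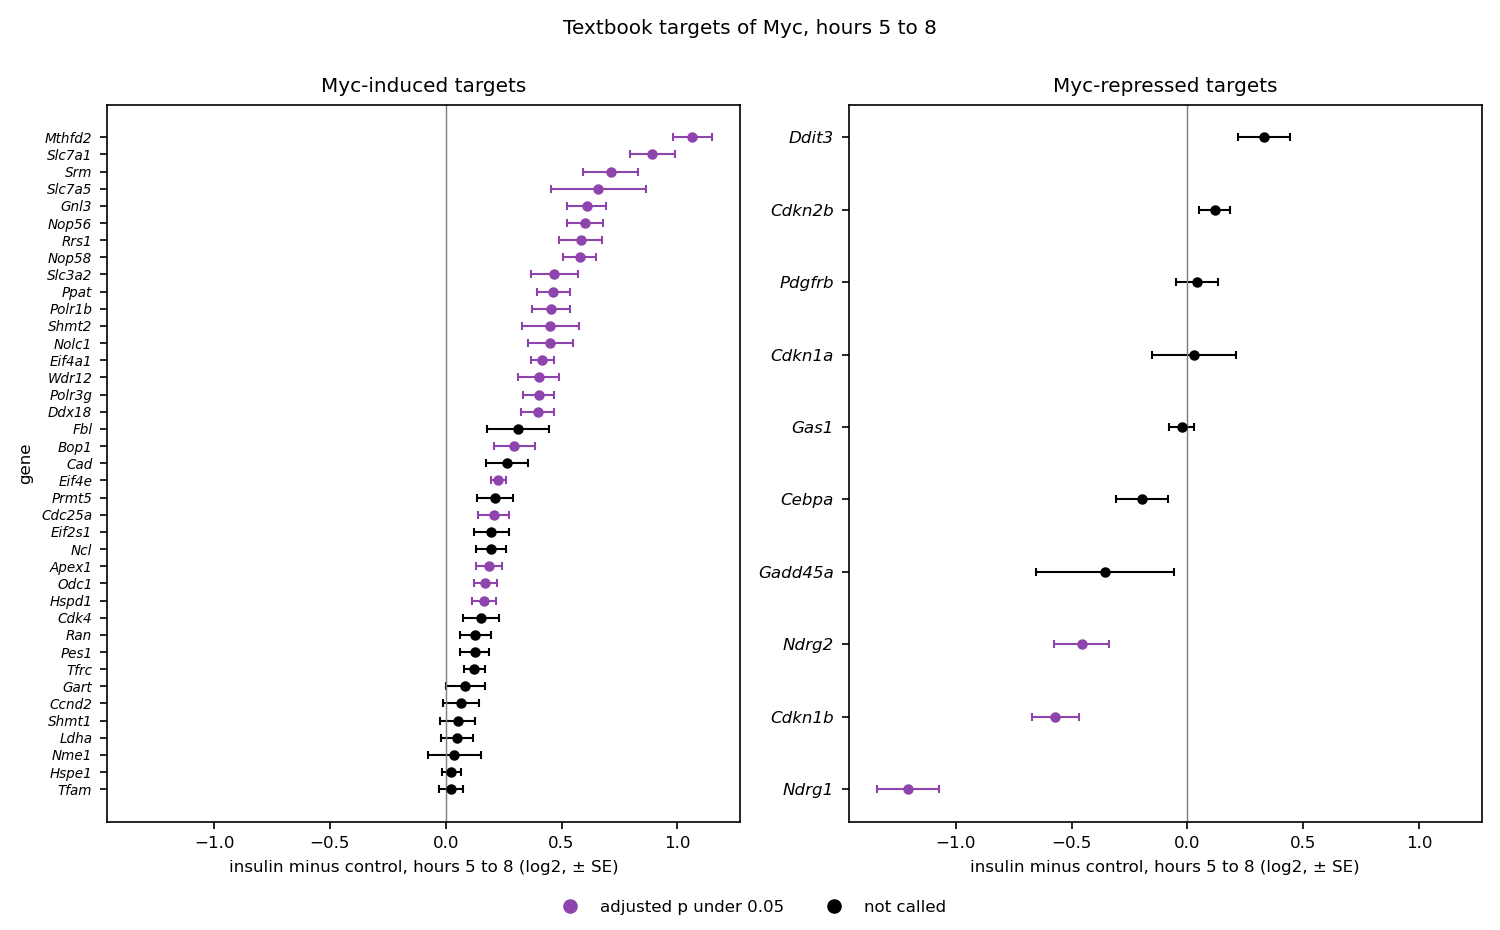
Insulin minus control difference over hours 5 to 8 (log2, limma estimate ± SE) for the 39 tested Myc-induced genes on the left and the 10 tested Myc-repressed genes on the right, ordered by size. Purple marks an adjusted p under 0.05. All 39 estimates on the left lie above 0, and on the right 3 genes are called, all below 0.

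Of 11 genes known to be lowered by Myc, 10 were tested, and over hours 1 to 8, 3 were lower and 1 higher, where 8.34% and 5.75% of all genes were. This list, too, was chosen with earlier results of these data known. Ndrg1, a growth arrest and stress gene, was lower (-0.89, SE 0.095, adjusted p = 1.13e-08), as were the cyclin-dependent kinase inhibitor gene Cdkn1b (-0.42, SE 0.072, adjusted p = 7.29e-05) and Ndrg2 (-0.26, SE 0.086, adjusted p = 0.0418). Ddit3, a stress-response transcription factor, was higher (0.29, SE 0.081, adjusted p = 0.014). Cdkn1a (-0.14, adjusted p = 0.541) and Cdkn2b (0.094, adjusted p = 0.213), which encode further cell cycle inhibitors, were not called, nor was Gadd45a (-0.22, adjusted p = 0.567). The list's median was -0.18. Ddit3 was not called without repeat b, repeat c or repeat b at hours 0 to 5, when no gene of the list was called higher, and without repeat b 2 genes were lower. Those fits also called a smaller share of all genes than the main fit. With the repeat as a block, which called 30.5% of all genes, 5 were lower and 1 higher. Of the 6 genes fixed as targets of Mlx with its Mondo partners, Txnip, an inhibitor of thioredoxin and of glucose uptake, was lower (-0.67, SE 0.099, adjusted p = 7.33e-06). Fatty acid synthase Fasn was higher (0.37, SE 0.090, adjusted p = 0.0046), while Arrdc4 (-0.046), Pklr (0.060), Acaca (0.072) and Acly (0.23) were not called. Without repeat c no gene of the 6 was called higher, and with the repeat as a block 2 were.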

How the data were processed

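Transcripts of rat L6 myotubes were measured on Affymetrix rat expression arrays. The deposited values were log2 levels that the authors made with RMA (background correction, quantile normalization and summary per probe set), and no count or depth lies behind them, so precision comes only from how many arrays each group holds. Of 31099 probe sets, 57 manufacturer controls were left out and 21958 with a mean level of at least 5.04 log2 units were tested. Probe sets with 1 symbol (20832) were named from the platform annotation, those with several symbols (436) or none (9831) were not, and a gene was read at its brightest tested probe set (11577 genes). The number 21958 was taken from the paper, which filtered by detection calls. Those calls were not used here.

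Group means of all 18 groups were fitted with limma 3.58.1 in R 4.3.3 (eBayes with trend), with Benjamini-Hochberg adjustment over all tested probe sets and a threshold of 0.05. The script was tested on simulated data first. The repeats are experiments of different days, but arrays of 1 repeat at different hours entered as separate samples. Repeats with the same letter deviated together in each of 26 pairs of groups (r = 0.207 to 0.787). At hours 0 to 5 repeat b had the lowest r of each hour (0.207 to 0.41). The letters were taken to mark the day in both cultures, which the labels do not state. On that reading a fit with the repeat as a block was run beside the main fit without it, and arrays were paired by letter. The highest correlation between any 2 arrays was 0.998, and no array was counted as a duplicate. The other alternatives were each repeat left out, all probe sets tested, eBayes without trend, arrays centred on their medians, 1 mean per repeat, differences relative to time 0, second probe sets and, chosen after seeing the data, the fit without repeat b at hours 0 to 5. Where the label fields disagreed on when the first sample of the last pool was taken, the later time was used. The genes named were all members, the genes nearest each member by correlation of group means (5 for Myc, 3 for others) and, of each list, up to 4 called genes a direction with the largest differences over hours 1 to 8 (short lists in full). Srm, Nop58, Rrs1, the marker genes and the uncalled genes of the Myc target lists were named after their values were seen. The members and lists were chosen with earlier results of these data known. Promoters came from RefSeq's table for GRCr8, and 0 sample columns went unused.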

Additional observations from a re-analysis of the deposited data

Results flagged for a closer look

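In the main fit, the insulin minus control difference of Mxi1 was called as not the same early and late, by a test of the change itself. At the brighter probe set this call was lost without repeat b and with 1 mean per repeat, as given above. At its brighter probe set, the difference of hours 5 to 8 less that of hours 1 and 2 was -0.76 (SE 0.11, limma adjusted p = 1.16e-04), and at its second probe set -0.49 (SE 0.12, adjusted p = 0.0224). Each of the 3 repeats moved the same way at each probe set, with -0.73, -0.53 and -1.03 at the brighter one and -0.55, -0.21 and -0.73 at the second.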

How the results depend on the processing

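No called value changed sign under any alternative. With the replicate block (pairing arrays by repeat), members called over hours 1 to 8 came to 2 higher, over hours 5 to 8 to 2 higher, from early to late to 2 lower, in the control culture against time 0 to 3 higher, and in the insulin culture to 1 higher and 1 lower, in a fit that called 30.5% of all genes over hours 1 to 8 and 25.1% over hours 5 to 8, against 14.1% and 11.2% without the block. It changed no other call of a member in these comparisons. With the difference at time 0 subtracted, hours 1 to 8 had 0 higher and 0 lower and hours 5 to 8 had 0 higher and 1 lower, beside 0% and 0.216% of all genes called. With 1 mean per repeat, 1 was lower over hours 1 to 8, 2 over hours 5 to 8 and 0 from early to late. With all probe sets tested, 1 was lower in the control culture. Without repeat b at hours 0 to 5, 2 were lower over hours 5 to 8 and the F test called 1. Leaving out each repeat in turn gave 0 to 1 higher and 2 to 4 lower over hours 1 to 8, 1 to 3 lower over hours 5 to 8, 0 to 2 lower from early to late, 1 to 3 by the F test, 1 to 2 higher and 0 to 2 lower in the control culture and 0 to 1 lower in the insulin culture, while the share of all genes called over hours 1 to 8 was 22.4% without repeat a, 3.71% without b and 6.83% without c. Apart from the shares named, that of all genes called under these alternatives is not given. Where it is missing, a loss of member calls cannot be told apart from a loss over all genes. The cause of these shifts was not tested.

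Values that were not called, and that were near 0, changed sign when a repeat was left out. Over hours 1 to 8 they were Max (-0.033 to 0.049) and Mxd3 (-0.082 to 0.061), over hours 1 and 2 Mxd1 (-0.014 to 0.026), Mnt (-0.16 to 0.0047) and Mlx (-0.021 to 0.16), and over hours 5 to 8 Max (-0.011 to 0.12) and Mxd3 (-7.35e-04 to 0.21). From early to late they were Mnt (-0.23 to 0.065) and Mlx (-0.023 to 0.22), and at time 0 Myc (-0.17 to 0.24), Max (-0.046 to 0.031), Mxi1 (-0.12 to 0.0048) and Mxd3 (-0.38 to 0.14). Against time 0 they were Mnt in the control culture (-0.0080 to 0.094) and Max (-0.18 to 0.062) and Mxd4 (-0.082 to 0.17) in the insulin culture. Max over hours 1 to 8 was 0.013 with arrays centred, 0.0077 relative to time 0 and 0.017 at its second probe set, where it was 0.040 in the insulin culture against time 0. Mxd3 over hours 1 to 8 was 0.010 relative to time 0 and 0.029 without repeat b at hours 0 to 5, and Mxd1 over hours 1 and 2 was -0.014 without those arrays. The second Mlx probe set gave -0.063 from early to late and 0.023 at time 0.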
